A study of Mus musculus with 13 samples.

Results

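Livers of mice given TAA for 6 weeks were compared with livers of naive mice, at the longest exposure of a series that also sampled 1 and 4 weeks. TAA is the usual short form of thioacetamide, a hepatotoxin used in rodents to bring about liver fibrosis. The 6-week group holds 3 samples of total liver RNA from TAA-treated female C57BL/6 mice, and the naive group holds 3 samples of total liver RNA from female C57BL/6 mice without TAA. These are 6 of the 13 samples of the series, all measured on single-colour Illumina BeadArrays. Age, dose and route are not in the labels, nor is it stated that each sample came from its own animal. The p-values therefore reflect the spread among samples within the groups of all 13 arrays, and not a known spread among animals. A gene was kept if a named probe was detected on 3 or more of the 13 arrays, taking a detection p-value below 0.01 as detected. This gave 8027 genes, each represented by 1 probe, of 16590 gene symbols on the array. The samples are called A, B and C as in the intensity table.

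Thioacetamide is turned into reactive metabolites by cytochrome P450 enzymes, chiefly CYP2E1, which in liver sits in the hepatocytes around the central vein. Hepatocytes differ along the lobule: pericentral cells hold much of the drug metabolism and glutamine synthesis, and periportal cells hold much of the urea synthesis. Injury that is repeated turns hepatic stellate cells into collagen-producing myofibroblasts, draws macrophages to the damaged tissue and expands cells with bile duct character. In RNA of whole liver, fewer cells of a type and less RNA per cell cannot be told apart.

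The 6-week arrays were dimmer, with a mean intensity of 194.9 on array A, 273.1 on array B and 201.8 on array C, against 587.3, 492.4 and 472.4 on the naive arrays. They still detected 9675 to 10269 probes, against 9382 to 9624 on naive arrays. After quantile normalization the 6-week arrays correlated with each other at 0.976 to 0.98 and with the naive arrays at 0.904 to 0.917, and the naive arrays correlated with each other at 0.978 to 0.988 (Pearson's r across genes, which are not independent replicates). The 3 arrays at 6 weeks and the 1-week arrays B and C stood apart from all the other arrays by at least 1 log2 unit at 7 genes, namely Prf1, Ifngr2, Erich5, Gm7609, Rhbdl2, Zxda and Pisd-ps2, and are called the second array set. The set was found from the intensities in earlier work on these data, and the labels name no such set. It holds arrays of 6 weeks and no naive array, so no value within a set can be had. Changes were therefore also fitted with the set as a term, which rests on 1-week array A against 1-week arrays B and C, and this value, called set-adjusted, is printed where it ends a call or moves a change by over 1.5 times. The set-adjusted p is the adjusted p-value of that fit.

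Of the 8027 genes, 3118 (38.8%) were called at an adjusted p under 0.05, 1800 of them (22.4%) higher and 1318 (16.4%) lower at 6 weeks than in naive liver. These shares are the background for the counts of each list below, and no list was tested against them. All 3 arrays of a group lay beyond all 3 of the other at 4231 genes (52.7%), and 3033 of the called genes were among them. Among the called genes, 752 were higher and 632 lower by at least 1 log2 unit, and 138 were higher and 117 lower by at least 2. The median change over all genes was 0.09 log2 units, and the median SE of a change was 0.223. A gene needed detection on 3 arrays of any group, so some entered through 1 group alone: 763 tested genes were detected on no naive array, and 655 of these lay higher at 6 weeks. For such genes the direction was largely set by the filter, and the counts of lists with many such genes are also given over the members that a naive array detected. With the array set as a term, 934 genes were called, 818 of them in the same direction as without it. Of the 3118 called genes, 3038 kept their sign and 80 took the opposite one. The set term itself was called at 4 genes. Whether a call was lost through the set or through the lower precision of that fit was not tested. Levels and changes below are normalized log2 intensities, each change is 6 weeks minus naive with its SE, and n is 3 per group.

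**Figure D1:**
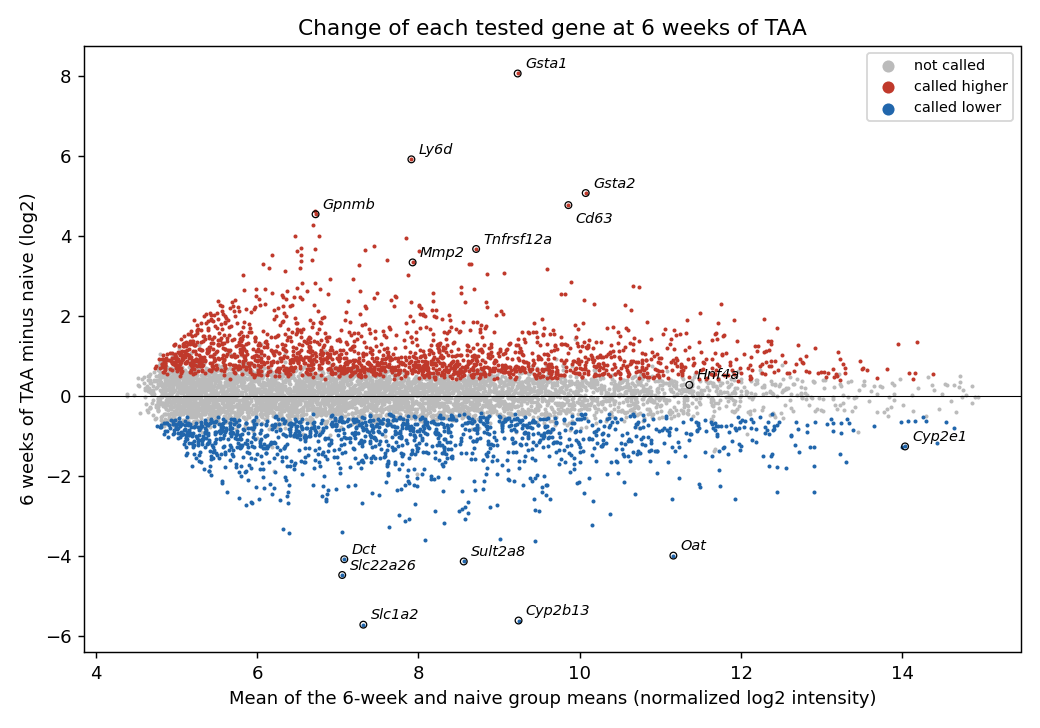
Each point is a tested gene, with its mean level across the 6-week and naive groups (normalized log2 intensity) on the horizontal axis and its change, 6 weeks minus naive in log2 units, on the vertical axis. Called genes are red where higher and blue where lower. Circled genes are named in the text, and Gsta1 and Slc1a2 lie at the upper and lower ends with changes of 8.07 and -5.71.

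The glutathione S-transferase Gsta1, which conjugates electrophiles to glutathione, had the largest change of all tested genes. Its levels were 13.28, 13.42 and 13.09 in 6-week samples A, B and C, against 6.72, 4.42 and 4.45 in naive samples A, B and C. The change was 8.07 ± 0.48 (adjusted p = 1.33e-07). The gene was detected on 1 naive array only, and with the undetected naive arrays at their lowest detected signal the change was 7.40. Its near-identical relative Gsta2 had levels of 12.72, 12.95 and 12.16 at 6 weeks, against 8.22, 6.59 and 7.80 in naive liver, a change of 5.08 ± 0.47 (adjusted p = 4.29e-06). Probes of such close relatives may read each other's transcripts, so the share of each gene is uncertain.

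The rest of the glutathione S-transferase family moved in both directions. Of 24 listed members, 22 were tested, 8 were called higher and 7 lower, and their median change was 0.424; 3 and 2 of these calls were also made with the array set as a term. Gstp2, a pi-class member, was detected on no naive array and was at least 3.91-fold higher at 6 weeks (adjusted p = 3.52e-04). Such a bound sets the mean of the brighter group against the mean, over the dimmer arrays, of the higher of the probe's own signal and the lowest signal detected on that array. The omega-class gene Gsto1 changed by -1.44 ± 0.17 (adjusted p = 3.52e-05), and the theta-class gene Gstt3 by -1.17 ± 0.21 (adjusted p = 5.77e-04). Under median scaling Gstt3 changed by -1.78. The steepest rises were thus those of Gsta1 and Gsta2, while Gstt1, Gstt2, Gstt3 and Gsto1 were called lower.

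Genes of the NRF2 redox response, which NRF2 turns on under oxidative or electrophilic stress, were largely higher. Of 41 listed genes, 31 were tested, 21 were called higher and 2 lower, with a median change of 0.994, against 0.09 over all genes. Cbr3, a carbonyl reductase, had levels of 8.97, 9.17 and 11.30 at 6 weeks, against 6.26, 5.50 and 5.84 in naive liver, a change of 3.95 ± 0.50 (adjusted p = 5.64e-05). Srxn1, which repairs oxidized peroxiredoxins, changed by 2.55 ± 0.31 (adjusted p = 4.57e-05). Its 2 further probes past the filter changed by 0.76 and 1.43. Slc7a11, the cystine importer that feeds glutathione synthesis, changed by 2.38 ± 0.63 (adjusted p = 0.00793), with a set-adjusted change of 3.32 and adjusted p of 0.0739. Nqo1, a quinone reductase often taken as the marker of this response, was not called, at 6.25 against 5.90 and a change of 0.34 ± 0.20 (adjusted p = 0.189). It was called under median scaling, with a change of 0.599, and under cyclic loess, with 0.49. Catalase (Cat), which breaks down hydrogen peroxide, and the basolateral exporter Abcc3 were the members called lower, at -0.83 and -1.26. Cat was not called without 6-week sample B (-0.729) or C (-0.68), and changed by -1.45 under median scaling and, set-adjusted, by -1.45. With the array set as a term 3 of the 21 rises and both falls remained, in the same direction. That fit called 3 of the listed genes higher and 3 lower, with a median of 0.598. Under median scaling 15 were called higher and 5 lower, with a median of 0.599.

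Reductases and dehydrogenases of aldehydes and ketones also split. Of 32 listed aldo-keto reductases and aldehyde dehydrogenases, 22 were tested, 8 were called higher and 5 lower, against 4 and 7 under median scaling and 5 and 3 without naive sample B, and 4 and 2 were also called with the array set as a term. Akr1c18, a steroid reductase, was detected on no naive array and was at least 5.81-fold higher (adjusted p = 9.49e-05). Akr1c19 changed by 1.92 ± 0.25 and Aldh1a1, the retinaldehyde dehydrogenase, by 1.23 ± 0.17 (0.67 under median scaling). Aldh1l1, which handles 10-formyltetrahydrofolate in hepatocytes, changed by -1.91 ± 0.25 (adjusted p = 6.20e-05).

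Against this, most of the drug-metabolizing enzymes of the endoplasmic reticulum were lower at 6 weeks. Of 55 listed cytochrome P450 genes, 36 were tested, 22 were called lower and 5 higher, and their median change was -1.05. Cyp2e1, the enzyme that activates thioacetamide, had levels of 13.52, 13.37 and 13.33 in 6-week samples, against 14.71, 14.65 and 14.63 in naive samples. The groups did not overlap, and the change was -1.26 ± 0.20 (adjusted p = 2.39e-04). Cyp2b10, an inducible target of the nuclear receptor CAR, had levels of 5.94, 5.67 and 6.41 at 6 weeks, against 10.08, 9.17 and 8.56 in naive liver. The change was -3.26 ± 0.42 (adjusted p = 6.20e-05). The gene of CAR itself, Nr1i3, changed by -2.38 ± 0.24 (adjusted p = 8.62e-06). Cyp2d40 changed by -2.86 ± 0.23 and Cyp2c50 by -2.58 ± 0.34, while Cyp1a2 changed by -1.29 ± 0.30 with a set-adjusted p of 0.153 and a change of -1.98 under median scaling. Cyp4a12a, known as a male-biased fatty acid hydroxylase, went the other way. It was detected on no naive array and was at least 2.85-fold higher (adjusted p = 2.11e-04), with a set-adjusted change of 1.88 and adjusted p of 0.0836. Of the 27 P450 calls, 14 were also made with the array set as a term.

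Conjugating enzymes followed the P450 genes. Of 46 listed UDP-glucuronosyltransferases, sulfotransferases, carboxylesterases and flavin monooxygenases, 27 were tested, 18 were called lower and 3 higher, with a median change of -0.938. The fit with the array set as a term also called 8 of the falls and 1 of the rises. Ugt3a1 had levels of 7.78, 6.81 and 7.06 at 6 weeks, against 10.68, 10.64 and 11.08 in naive liver, a change of -3.58 ± 0.34 (adjusted p = 5.46e-06). Ugt1a2 was detected on no 6-week array and was at least 7.32-fold lower (adjusted p = 1.40e-05); since Ugt1a genes share exons its probe may read relatives. Ces3b, a carboxylesterase, changed by -3.23 ± 0.45 (adjusted p = 9.08e-05), with a set-adjusted change of -2.52 and adjusted p of 0.06. Sult2a8, a sulfotransferase outside the list, was among the largest falls, at 7.22, 6.45 and 5.82 in 6-week samples, against 10.51, 10.59 and 10.79 in naive samples. Its change was -4.13 ± 0.49 (adjusted p = 3.44e-05). Ugt2b35 was higher, by 1.49 ± 0.23 (adjusted p = 2.33e-04).

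**Figure D2:**
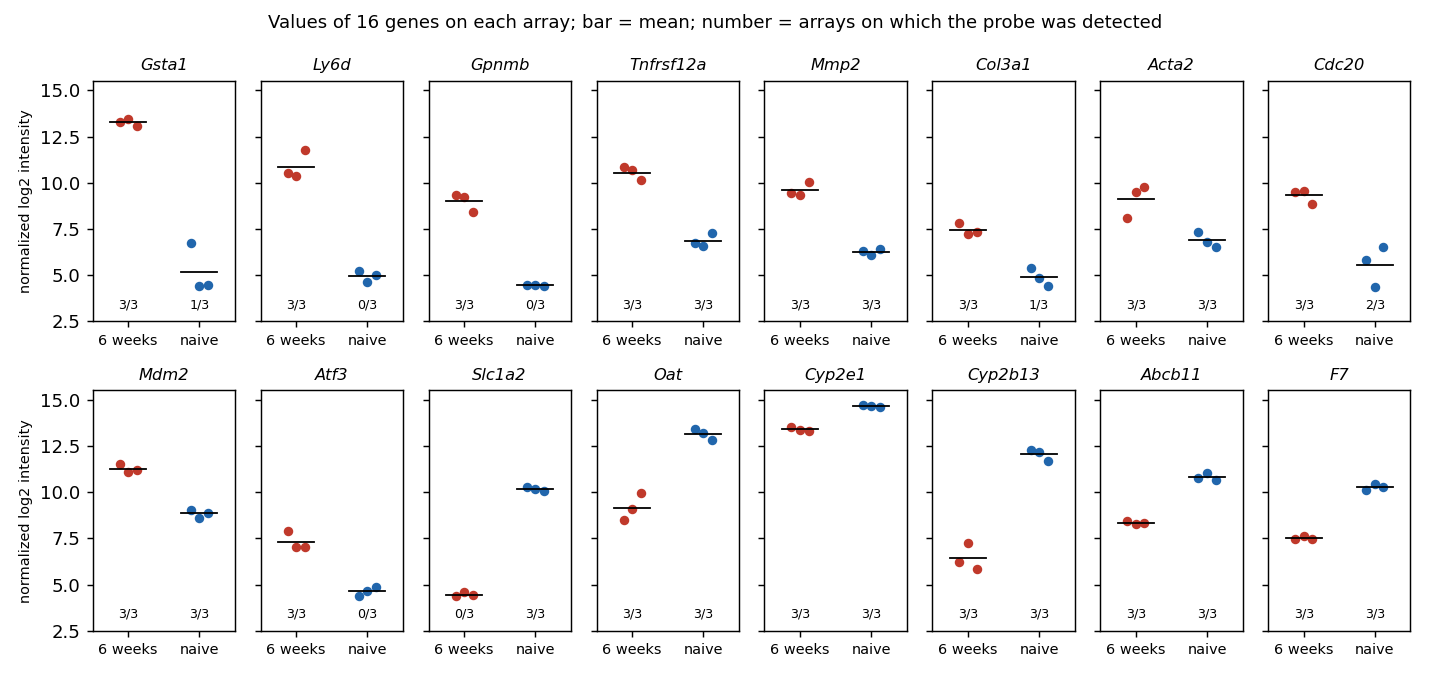
Each panel gives the normalized log2 intensity of 1 gene on the 3 arrays at 6 weeks (red, left) and the 3 naive arrays (blue, right), with a bar at each group mean and below it the number of arrays on which the probe was detected. In each of the 16 panels, which all show called genes, the groups do not overlap. The same held for 3033 of all 3118 called genes and for 52.7% of all tested genes. From lowest to highest array, Acta2 and Oat span the widest range within 6 weeks, and Gsta1 and Cdc20 within naive samples.

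Genes of both liver zones were lower for the most part. Of 28 listed pericentral genes, 23 were tested, 15 were called lower and 4 higher, with a median of -1.26, and 9 and 1 of these were also called with the array set as a term. Slc1a2, the glutamate transporter of the hepatocytes next to the central vein, had levels of 4.36, 4.58 and 4.44 at 6 weeks, where it was detected on no array, against 10.30, 10.15 and 10.06 in naive liver. It was at least 30.8-fold lower (adjusted p = 9.15e-08). Its 2 further probes changed by -3.0 and -4.93. Oat, ornithine aminotransferase, had levels of 8.49, 9.08 and 9.93 at 6 weeks, against 13.42, 13.20 and 12.84 in naive liver. Its change was -3.99 ± 0.37 (adjusted p = 4.29e-06). Glul, glutamine synthetase of the same cells, was detected on no 6-week array and was at least 2.16-fold lower (adjusted p = 7.45e-05). Under median scaling its change was -1.0, with an adjusted p of 0.0649. The members called higher included Cyp2a5, a coumarin hydroxylase whose probe may read close relatives, at 1.29 ± 0.26 (set-adjusted p 0.138), the amino acid transporter gene Slc1a4, at 1.28 ± 0.33 (set-adjusted p 0.0798; 0.667 without background correction), and Aldh1a1, described above. The pericentral list thus held genes that moved in both directions.

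Of 24 listed periportal genes, 19 were tested, 12 were called lower and 2 higher, with a median of -1.08, and 4 of the falls were also called with the array set as a term. Asl, argininosuccinate lyase of the urea cycle, had levels of 5.92, 6.89 and 7.38 at 6 weeks, against 9.51, 10.08 and 10.12 in naive liver, a change of -3.17 ± 0.39 (adjusted p = 4.57e-05). Its set-adjusted change was -1.90 with an adjusted p of 0.0585. Pigr, the receptor that carries IgA into bile, changed by -2.86 ± 0.26 (adjusted p = 4.29e-06), and Agxt, which clears glyoxylate in peroxisomes, by -2.45 ± 0.21 (adjusted p = 2.56e-06). The medians of the zone lists were thus close to each other, and a difference between zones was not tested.

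Amino acid breakdown and the urea cycle were lower as a group. Of 59 listed genes, 49 were tested, 33 were called lower and 1 higher, with a median of -0.713, and 14 of these calls were also made with the array set as a term. Besides Oat and Asl, Prodh, proline dehydrogenase, changed by -2.87 ± 0.26 (adjusted p = 4.17e-06). Upp2, a uridine phosphorylase, and Sugct, a mitochondrial CoA transferase, fell outside the list: Upp2 changed by -3.61 ± 0.44, and Sugct was detected on no 6-week array and was at least 4.1-fold lower.

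Bile acid handling was lower too. Of 35 listed genes, 26 were tested, 15 were called lower and 1 higher, with a median of -1.05, and the term for the array set left 9 of the falls called. Abcb11, the bile salt export pump, had levels of 8.42, 8.28 and 8.34 at 6 weeks, against 10.78, 11.03 and 10.64 in naive liver, a change of -2.48 ± 0.24 (adjusted p = 6.61e-06). Slco1b2, an uptake transporter of the sinusoidal membrane, changed by -2.69 ± 0.39 (adjusted p = 1.31e-04), with a set-adjusted change of -1.18 and adjusted p of 0.167. Cyp7a1, the rate-limiting enzyme of bile acid synthesis, had levels of 11.19, 10.36 and 11.14 at 6 weeks, against 11.42, 11.51 and 11.07 in naive liver, with overlapping groups and a change of -0.44 ± 0.33 (adjusted p = 0.313). Its set-adjusted change had the opposite sign, 0.13, and under median scaling it was called at -1.03.

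Lipid metabolism showed fewer calls. Of 32 tested genes of fatty acid oxidation and PPAR-alpha targets, 2 were called higher and 4 lower. Of 28 tested genes of fatty acid and triglyceride synthesis, 3 were called higher and 5 lower, and of 18 tested genes of cholesterol synthesis, 4 higher and 2 lower. The same 3 lists kept 0, 3 and 0 of these calls with the array set as a term. Against the background of 22.4% higher and 16.4% lower these counts are low or near it, but under median scaling 19 oxidation genes were called lower, under cyclic loess 10 and with array weights 9. For cholesterol synthesis median scaling gave 0 called higher and 5 lower, and for fatty acid synthesis 5 and 8. Within them, Srebf1, the regulator of lipogenesis, changed by -1.32 ± 0.21 (adjusted p = 2.83e-04) and Agpat2, an acyltransferase of triglyceride synthesis, by -1.59 ± 0.21 (adjusted p = 7.18e-05). Scd2, a stearoyl-CoA desaturase, was higher by 2.26 ± 0.52 (adjusted p = 0.00345), with a set-adjusted p of 0.0794.

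Of 29 tested genes of glycolysis and gluconeogenesis, 6 were called higher and 10 lower, and 1 and 5 of these also with the array set as a term. Pdk4, a kinase that shuts off pyruvate dehydrogenase, had the largest rise, at 3.30 ± 0.55 (adjusted p = 3.83e-04; set-adjusted p 0.063). Aldoa, a glycolytic isoform that adult hepatocytes hold at a low level, was higher by 1.57 ± 0.20 (adjusted p = 5.73e-05). Gys2, liver glycogen synthase, was detected on no 6-week array and was at least 3.54-fold lower (adjusted p = 4.57e-05; set-adjusted change -1.61, p 0.0534). Ldhd, which oxidizes D-lactate, changed by -2.24 ± 0.22 (adjusted p = 6.49e-06). Car3, a carbonic anhydrase abundant in liver and fat, had levels of 7.40, 7.82 and 7.67 at 6 weeks, against 11.12, 11.48 and 11.16 in naive liver. Its change was -3.62 ± 0.40 (adjusted p = 2.08e-05), and the set-adjusted change was smaller, at -1.96 (adjusted p = 0.0299).

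Proteins that hepatocytes secrete were lower where they belong to complement and coagulation. Of 42 listed genes, 35 were tested, 24 were called lower and 0 higher, with a median of -0.987, and 10 of the calls were also made with the array set as a term. F7, the gene of coagulation factor VII, had levels of 7.46, 7.60 and 7.46 at 6 weeks, against 10.10, 10.45 and 10.26 in naive liver, a change of -2.76 ± 0.23 (adjusted p = 2.56e-06). Serpind1, the heparin cofactor that inhibits thrombin, changed by -2.17 ± 0.28, and Masp1, a protease of the lectin pathway, by -2.08 ± 0.31.

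Acute phase proteins were also mostly lower: of 26 tested, 14 were called lower and 2 higher, or 9 and 1 without 6-week sample A, and 5 and 1 also with the array set as a term. Lrg1 changed by -2.20 ± 0.36 (adjusted p = 3.22e-04) with a larger set-adjusted change of -3.64. Orm2 changed by -2.14 ± 0.59 (adjusted p = 0.0102; set-adjusted change -3.41), and by -1.28 without naive sample A. Cd14, the endotoxin co-receptor of macrophages and stressed hepatocytes, was higher by 1.72 ± 0.30 (adjusted p = 5.32e-04).

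Among the listed hepatocyte identity factors and secreted proteins, more were called lower than higher. Over all genes 38.8% were called, 22.4% higher and 16.4% lower. Of 32 tested, 22 were not called, 9 were called lower and 1 higher, with a median of -0.154 that was -0.528 set-adjusted, and 4 of the falls were also called with the array set as a term. Hnf4a, the master regulator of hepatocyte identity, had levels of 11.80, 11.23 and 11.46 at 6 weeks, against 10.77, 11.60 and 11.28 in naive liver, a change of 0.28 ± 0.26 (adjusted p = 0.412). Its sign turned with the array set as a term, to -0.55, and under median scaling, to -0.349. The Alb probe, for albumin, read 6.08, 6.04 and 6.08 at 6 weeks, against 5.84, 6.72 and 5.90 in naive liver, a change of -0.088 ± 0.25 (adjusted p = 0.805), with a change of 0.168 under median scaling and of 0.196 without naive sample B. These readings lie near the lowest detected signal, 5.147 to 5.339 at 6 weeks and 5.355 to 5.439 on naive arrays, although albumin mRNA is abundant in liver, so they are no measure of albumin. Apoa5, an apolipoprotein that lowers triglyceride, was called lower, by -1.85 ± 0.25 (adjusted p = 8.49e-05). Afp, alpha-fetoprotein of fetal liver, was detected on no naive array and was at least 2.18-fold higher (adjusted p = 0.00227). Igf2, a fetal growth factor, was detected on 2 arrays at 6 weeks and on no naive array, and was at least 3.18-fold higher, with an adjusted p of 0.00939 and a set-adjusted p of 0.101. Its fitted change was 2.22 ± 0.60, and 1.31 without 6-week sample C.

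Every one of the 10 tested genes that female livers are known to express above male livers was called lower, of 24 listed. Their median change was -2.52, or -2.66 set-adjusted, and 4 of the calls were also made with the array set as a term. Cyp2b13 had levels of 6.23, 7.25 and 5.83 at 6 weeks, against 12.31, 12.15 and 11.68 in naive liver. Its change was -5.61 ± 0.64 (adjusted p = 2.68e-05), and its set-adjusted change was -6.37. Its close relative Cyp2b9 was called lower too, though such probes may read each other. Slc22a26, an organic anion transporter, was detected on no 6-week array, with 5.09, 4.70 and 4.66 against 8.83, 9.61 and 9.43 in naive liver. It was at least 16.7-fold lower (adjusted p = 8.31e-06). A1bg changed by -2.96 ± 0.59 (adjusted p = 0.00142; set-adjusted p 0.0981).

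The 14 tested male-biased genes did not mirror this, with 3 called higher and 5 lower, none of them also called with the array set as a term (3 lower without naive sample C, 6-week sample B or 6-week sample C). Besides Cyp4a12a above, Hsd3b5, a male-biased steroid dehydrogenase, was detected on no 6-week array and was at least 4.02-fold lower, with an adjusted p of 3.56e-04 and a set-adjusted p of 0.0911. Sex bias of many of these genes follows the pattern of growth hormone. Socs2, a growth hormone target and feedback inhibitor, changed by -1.72 ± 0.27 (adjusted p = 2.70e-04). Igfbp2 changed by -2.43 ± 0.24 (adjusted p = 6.55e-06). Of 16 tested genes of this axis, 3 were called higher and 4 lower (22.4% and 16.4% over all genes), and with array weights 3 and 7. Their median of -0.449 turned to 0.15 set-adjusted, and 2 of the 7 calls were also made with the array set as a term.

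**Figure D3:**
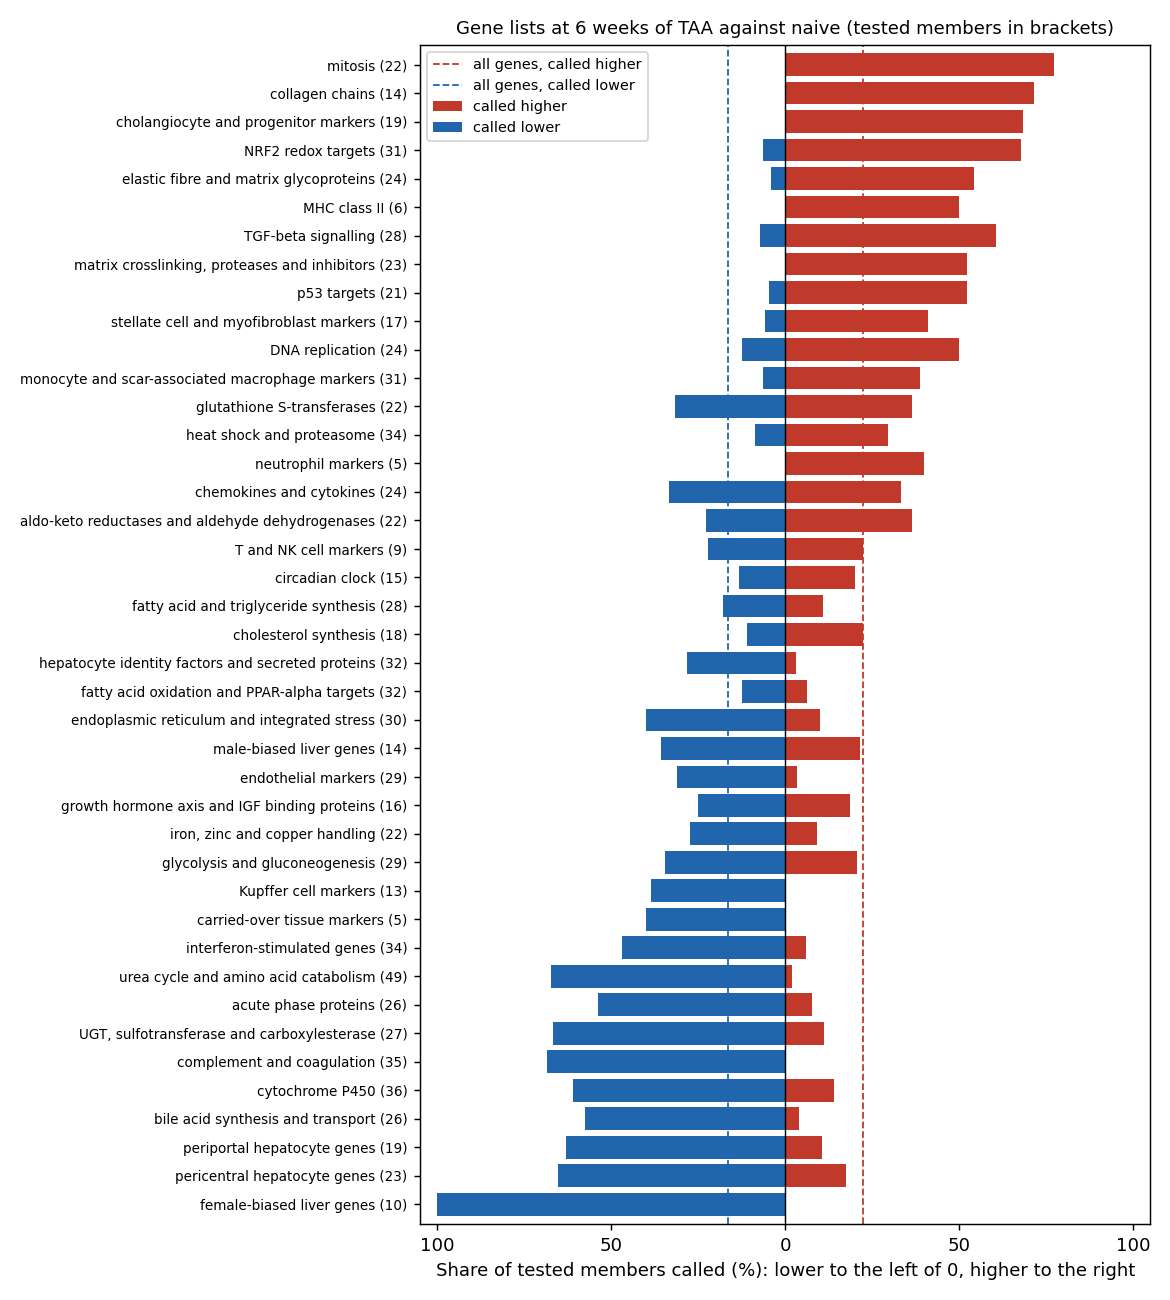
For each gene list with at least 5 tested members, the bar to the right gives the percent of tested members called higher at 6 weeks and the bar to the left the percent called lower, ordered by the list's median change, with the number tested in brackets. Dashed lines give the shares over all genes, 22.4% higher and 16.4% lower. Mitosis and collagen chains stand at the top, and the female-biased genes, all 10 called lower, at the bottom.

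Genes of the extracellular matrix were largely higher. Of 24 listed collagen chains, 14 were tested, 10 were called higher and 0 lower, with a median change of 1.19 (1.35 set-adjusted). A naive array detected 10 of the 14, of which 7 were called higher, and 3 of the 10 calls were also made with the array set as a term. Col3a1, a fibrillar collagen of scar tissue, had levels of 7.82, 7.25 and 7.34 at 6 weeks, against 5.41, 4.86 and 4.42 in naive liver, where 1 array detected it. Its change was 2.57 ± 0.36 (adjusted p = 9.08e-05), or 2.04 with the undetected naive arrays at their lowest detected signal. Col1a1, the main chain of type I collagen, had levels of 6.54, 6.26 and 6.39 at 6 weeks, against 4.78, 4.38 and 4.39 on naive arrays, none of which detected it. It was at least 1.98-fold higher (adjusted p = 3.00e-04). Its partner chain Col1a2 changed by 1.20 ± 0.30 (adjusted p = 0.00597; set-adjusted p 0.26). The summed intensity of the tested chains ran from 5730 to 9870 at 6 weeks and from 8010 to 8710 in naive liver, since the brightest probe, of Col18a1, was not called and lay lower at 6 weeks. The sum over all chains thus did not separate the groups.

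Of 38 listed elastic fibre proteins and matrix glycoproteins, 24 were tested, 13 were called higher and 1 lower, with a median of 0.928. Of the 19 that a naive array detected, 10 were called higher, and 6 of the 14 calls were also made with the array set as a term. Tinag, a basement membrane glycoprotein, was detected on no naive array, with 8.25, 8.93 and 9.15 at 6 weeks against 4.82, 4.46 and 5.0. It was at least 10.3-fold higher (adjusted p = 4.86e-07). Nid1, which links laminin to collagen IV, changed by 2.27 ± 0.31 (adjusted p = 7.85e-05). Eln, elastin, changed by 2.31 ± 0.46 (adjusted p = 0.00131), or 1.82 with the undetected naive arrays at their lowest detected signal, and its set-adjusted p was 0.0571. Ecm1, a matrix protein that hepatocytes secrete, was the member called lower, at -1.32 ± 0.20 (adjusted p = 1.61e-04; set-adjusted p 0.05).

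Of enzymes that cross-link or cut matrix, and their inhibitors, 12 of 23 tested members were called higher and 0 lower, with a median of 0.854 (1.66 set-adjusted). A naive array detected 14 of them, of which 5 were called higher, with a median of 0.536. Of the 12 calls, 7 were also made with the array set as a term. Mmp2, a gelatinase that myofibroblasts make, had levels of 9.43, 9.34 and 10.03 at 6 weeks, against 6.29, 6.08 and 6.40 in naive liver. Its change was 3.34 ± 0.53 (adjusted p = 2.50e-04). The lysyl oxidases Loxl1 and Lox, which cross-link elastin and collagen, were both higher: Loxl1 changed by 2.44 ± 0.49 (adjusted p = 0.0015), and Lox, detected on no naive array, was at least 1.97-fold higher (adjusted p = 8.85e-05). Timp1, which blocks matrix proteases, was detected on no naive array and was at least 2.54-fold higher (adjusted p = 9.98e-05). Ctsk, the collagen-cutting cathepsin K, changed by 2.21 ± 0.35 (adjusted p = 2.32e-04; set-adjusted p 0.0819). Cross-linking enzymes, proteases and their inhibitor were thus higher in the same livers.

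Markers of stellate cells and myofibroblasts were called in part. Of 27 listed, 17 were tested, 7 were called higher and 1 lower, with a median of 0.566 (1.19 set-adjusted), and 4 of the rises were also called with the array set as a term. Acta2, smooth muscle actin, the usual marker of myofibroblasts, had levels of 8.11, 9.48 and 9.80 at 6 weeks, lowest in sample A, against 7.33, 6.77 and 6.54 in naive liver. Its change was 2.25 ± 0.51 (adjusted p = 0.0031; set-adjusted change 3.48). Of 3 further Acta2 probes past the filter, 1 was higher by 1.59 and the others changed by -0.25 and -0.01. Tpm1, a tropomyosin, changed by 1.78 ± 0.21 (adjusted p = 3.01e-05), and Pdgfra, a growth factor receptor of mesenchymal cells, by 1.77 ± 0.28 (adjusted p = 2.74e-04; set-adjusted p 0.0556). Des, desmin, a marker of stellate cells before and after activation, had levels of 5.70, 6.08 and 6.67 at 6 weeks, against 5.77, 5.70 and 5.84 in naive liver, a change of 0.38 ± 0.32 (adjusted p = 0.365).

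Genes of TGF-beta signalling, the main inducer of matrix production, were mostly higher. Of 33 listed, 28 were tested, 17 were called higher and 2 lower, with a median of 0.859, and 6 of the rises and 0 of the falls were also called with the array set as a term. Ccn2, connective tissue growth factor and a TGF-beta target, had levels of 9.67, 9.84 and 10.54 at 6 weeks, against 7.43, 7.83 and 7.72 in naive liver, a change of 2.36 ± 0.44 (adjusted p = 8.95e-04). The ligand Pdgfa, which drives mesenchymal cells to divide, changed by 2.06 ± 0.24 (adjusted p = 2.73e-05). Tgfb1 itself had levels of 6.11, 6.39 and 6.47 at 6 weeks, against 6.53, 6.33 and 6.28 in naive liver, with overlapping groups and a change of -0.055 ± 0.26 (adjusted p = 0.888). Its sign turned to 0.83 with the array set as a term, to 0.136 under median scaling, and to 0.019 without naive sample A and 0.050 without 6-week sample A. Inhbc, an activin subunit that hepatocytes make, was called lower at -1.66 ± 0.35 (adjusted p = 0.00199; set-adjusted p 0.128).

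Several markers of bile duct cells and of liver progenitors rose. Of 30 listed, 19 were tested, 13 were called higher and 0 lower, with a median of 1.16, and their summed intensity was 5820 to 8160 at 6 weeks, against 1730 to 1950 in naive liver. Only 8 of the 19 were detected on any naive array, and the others entered through TAA arrays. Their place above naive, and their part in the gap between the summed intensities, were thus largely set by the filter. Of the 8, 4 were called higher and 0 lower, with a median of 0.539. Of the 13 calls, 5 were also made with the array set as a term. Ly6d, a surface protein of epithelial progenitors, had levels of 10.50, 10.36 and 11.75 at 6 weeks, against 5.24, 4.63 and 4.99 in naive liver. It was detected on no naive array and was at least 44.1-fold higher (adjusted p = 3.96e-06). Cldn4, a tight junction protein of ducts, and Tspan8, a tetraspanin, were likewise undetected on all naive arrays and at least 8.37-fold and 7.96-fold higher.

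Tnfrsf12a, the receptor of the cytokine TWEAK that drives the ductular response, had levels of 10.84, 10.67 and 10.15 at 6 weeks, against 6.77, 6.58 and 7.28 in naive liver, a change of 3.68 ± 0.33 (adjusted p = 3.69e-06). Sox9, a transcription factor of ducts and progenitors, changed by 1.16 ± 0.34 (adjusted p = 0.0152; set-adjusted p 0.42), and it was not called without naive sample A (change 0.977) or 6-week sample C (1.03). Krt19, the classic duct keratin, was detected on 1 array at 6 weeks and on no naive array, and was not called at a change of 0.97 ± 0.39 (adjusted p = 0.0583). It was called under median scaling at 1.41, with array weights at 1.09, and without 6-week sample A at 1.35. Epcam and Spp1 did not pass the detection filter with a probe of their own and were not tested. Ly6d, Cldn4, Tspan8 and Tnfrsf12a thus stood well above naive liver, while the keratin and Sox9 readings were small or at the limit of detection.

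Markers of resident Kupffer cells were lower where called: of 13 tested, 5 were called lower and 0 higher, with a median of -0.536. Their summed intensity was 6860 to 8980 at 6 weeks, against 8430 to 9130 in naive liver, and 3 genes were called lower without naive sample B or without 6-week sample A. With the array set as a term 1 was called lower and 1 higher, with a median of -0.331. Cd163, a haemoglobin scavenger receptor, had levels of 5.30, 5.99 and 6.18 at 6 weeks, against 7.81, 7.73 and 7.95 in naive liver, a change of -2.0 ± 0.21 (adjusted p = 1.51e-05). Fcna, ficolin A, changed by -1.81 ± 0.26 (adjusted p = 1.13e-04; set-adjusted p 0.0583). Clec4f, a lectin found on Kupffer cells of mice, changed by -1.01 ± 0.31 (adjusted p = 0.0199), but its set-adjusted change was 0.036, and it was not called without naive sample B (-0.835), 6-week sample A (-0.787) or 6-week sample C (-0.999). Timd4, a phosphatidylserine receptor of resident cells, changed by -0.54 ± 0.24 (adjusted p = 0.0899). Its change was 0.0055 under median scaling, and without 6-week sample B it was called at -0.718. Adgre1, the F4/80 antigen of macrophages at large, changed by -0.37 ± 0.36 (adjusted p = 0.441), with a set-adjusted change of 0.77.

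Some listed markers of recruited monocytes and of the macrophages that sit in scars were called higher. Over all genes, 22.4% were called higher and 16.4% lower, and the list was not tested against these shares. Of 37 listed, 31 were tested, 12 were called higher and 2 lower (8 and 2 of the 27 that a naive array detected, and 8 and 0 with the array set as a term), with a median of 0.5 (1 set-adjusted) and a summed intensity of 31000 to 39000 at 6 weeks, against 18100 to 19100 in naive liver. Gpnmb, a glycoprotein of lipid-laden macrophages, had levels of 9.33, 9.24 and 8.42 at 6 weeks, against 4.48, 4.46 and 4.42 in naive liver. None of the naive arrays detected it, and it was at least 12-fold higher (adjusted p = 2.08e-05). Trem2, which lets macrophages in scars sense lipid, was detected on no naive array and was at least 3.38-fold higher (adjusted p = 2.98e-04). Cd63, a lysosomal tetraspanin that other cells make too, had levels of 11.84, 12.40 and 12.50 at 6 weeks, against 7.78, 7.24 and 7.40 in naive liver, a change of 4.78 ± 0.30 (adjusted p = 1.98e-07). Emp1, an epithelial membrane protein, changed by 3.62 ± 0.51 (adjusted p = 1.08e-04). Fabp5 and Ctsl, also on the list, went the other way and were the 2 members called lower. The macrophage genes common to all such cells, C1qa, C1qb, C1qc, Tyrobp and Fcer1g, were not called.

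Of 6 tested MHC class II genes, 3 were called higher and 0 lower, with a median of 0.882 (1.81 set-adjusted), and 1 was called under median scaling or without 6-week sample C. H2-Aa, an alpha chain, changed by 1.02 ± 0.28 (adjusted p = 0.0106; set-adjusted change 1.63). Cd74, the invariant chain, changed by 0.98 ± 0.30 (adjusted p = 0.0171; set-adjusted change 1.78), and it was not called under median scaling (0.532) or without 6-week sample C (0.875).

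Lymphocyte markers were mostly below detection. Of 28 listed T and NK cell genes, 9 were tested, 2 were called higher and 2 lower, against 5 and 0 under median scaling and 1 and 0 with the array set as a term, and the summed intensity of 906 to 1200 at 6 weeks, against 418 to 567 in naive liver, was mostly that of Prf1. Prf1, perforin, is one of the genes that set the array sets apart: its change was 2.37 ± 0.38 (adjusted p = 2.92e-04), and set-adjusted 0.64 (adjusted p = 0.355). Ltb, lymphotoxin beta, was detected on no naive array and was at least 1.13-fold higher (adjusted p = 0.0052). The T and NK cell genes called lower were Cd3g and Icos. Over all genes, 22.4% were called higher and 16.4% lower. Of 14 listed B and plasma cell genes, 3 were tested and 0 were called.

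Of 5 tested neutrophil genes, S100a8 and S100a9, the calprotectin subunits, were called higher, by 1.87 ± 0.47 (adjusted p = 0.00647; set-adjusted p 0.119) and 1.84 ± 0.51 (adjusted p = 0.0109; set-adjusted p 0.181). S100a9 was not called without naive sample C (1.48) or 6-week sample B (1.54). The summed intensity of the 5 ran from 830 to 1680 at 6 weeks and from 651 to 4110 in naive liver, so the groups overlapped. The part of the other cell types in these results was not tested.

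Endothelial markers were more often lower than higher. Of 29 tested, 9 were called lower and 1 higher, with a median of -0.378 that was 0.0645 set-adjusted, where 1 was called lower and 0 higher. Without naive sample A, naive sample B or 6-week sample B, 5, 3 or 5 were called lower. Stab2, a scavenger receptor of sinusoidal endothelium, changed by -1.06 ± 0.18 (adjusted p = 5.12e-04; set-adjusted -1.36). Lyve1, a hyaluronan receptor of the same cells, was the member called higher, at 0.96 ± 0.32 (adjusted p = 0.0284; set-adjusted p 0.203), and it was not called without naive sample B (0.766), 6-week sample A (0.77) or 6-week sample B (0.924). Of 4 tested erythroid genes, 0 were called.

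Interferon-stimulated genes were lower without the array set as a term only. Of 34 tested, 16 were called lower and 2 higher, with a median of -0.693 that was -0.0118 set-adjusted, and 1 of these calls was also made with the array set as a term. Isg15, a ubiquitin-like protein, changed by -1.70 ± 0.31 (adjusted p = 6.94e-04), against a set-adjusted change of -0.37 (adjusted p = 0.551). Psmb9, an immunoproteasome subunit, changed by -1.31 ± 0.28 (adjusted p = 0.00195; set-adjusted -0.45, p 0.519). Cxcl10, an interferon-induced chemokine, went the other way, with 8.11, 7.35 and 6.89 at 6 weeks, against 5.03, 5.90 and 5.52 in naive liver. Its change was 1.96 ± 0.43 (adjusted p = 0.00257; set-adjusted 2.59).

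Chemokines and cytokines were called in both directions: of 24 tested, 8 were called higher and 8 lower. Of the 21 that a naive array detected, 5 were called higher and 8 lower. Without 6-week sample C the counts were 5 and 8, and with the array set as a term 3 and 1. The shares over all genes were 22.4% higher and 16.4% lower. Cxcl1, which draws neutrophils, changed by 2.68 ± 0.45 (adjusted p = 3.80e-04; set-adjusted 1.66, p 0.174). Cxcl9, a chemokine of T cells induced by interferon gamma, changed by -2.32 ± 0.48 (adjusted p = 0.00162; set-adjusted -1.53, p 0.259). Il18 was lower, by -1.54 ± 0.19 (adjusted p = 4.90e-05).

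Most tested genes of mitosis rose. Of 43 listed, 22 were tested, 17 were called higher and 0 lower, with a median change of 1.6. A naive array detected 13 of the 22, and 12 of these were called higher and 0 lower, with a median of 2.48. The other members entered through TAA arrays alone, so their direction was largely set by the filter. Cdc20, which activates the anaphase-promoting complex, had levels of 9.50, 9.58 and 8.87 at 6 weeks, against 5.83, 4.39 and 6.52 in naive liver. Its change was 3.74 ± 0.60 (adjusted p = 2.82e-04), or 3.39 with the undetected naive array at its lowest detected signal. Prc1, which bundles microtubules of the spindle midzone, changed by 3.40 ± 0.54 (adjusted p = 2.69e-04), and Cdca3, which triggers mitotic entry, by 3.02 ± 0.45 (adjusted p = 1.61e-04). With the array set as a term the median of the list stayed at 1.35, but 2 of the 17 calls were made. The set-adjusted adjusted p-values were 0.118 for Cdc20, 0.155 for Prc1 and 0.0953 for Cdca3, whose set-adjusted changes were 2.66, 2.07 and 2.13. The cyclin Ccnd1, which acts at entry to the cycle, had levels of 12.78, 12.48 and 12.39 at 6 weeks, against 10.85, 11.07 and 11.14 in naive liver, and changed by 1.53 ± 0.20 (adjusted p = 5.73e-05), or 0.91 under median scaling. Mki67 was not tested, since no probe of it passed the filter.

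Genes that act in mitosis often carry a CHR element (TTTGAA) next to a CCAAT box in their promoters, through which the DREAM complex and NF-Y are known to act. Promoter windows from 250 bases before to 50 bases after the gene start (RefSeq, GRCm38.p6) are shown for the 3 mitosis genes with the largest rises, with matches to TTTGAA and to CCAAT, on either strand, in capitals. Cdc20 is on the minus strand at chr4:118437294-118437593, Prc1 on the plus strand at chr7:80294201-80294500 and Cdca3 on the plus strand at chr6:124829926-124830225.
Cdc20: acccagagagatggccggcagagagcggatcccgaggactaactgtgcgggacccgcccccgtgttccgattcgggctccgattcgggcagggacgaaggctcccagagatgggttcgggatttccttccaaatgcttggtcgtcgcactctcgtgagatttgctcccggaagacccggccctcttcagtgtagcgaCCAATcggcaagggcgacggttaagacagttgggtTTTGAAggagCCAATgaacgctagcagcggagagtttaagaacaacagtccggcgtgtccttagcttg
Prc1: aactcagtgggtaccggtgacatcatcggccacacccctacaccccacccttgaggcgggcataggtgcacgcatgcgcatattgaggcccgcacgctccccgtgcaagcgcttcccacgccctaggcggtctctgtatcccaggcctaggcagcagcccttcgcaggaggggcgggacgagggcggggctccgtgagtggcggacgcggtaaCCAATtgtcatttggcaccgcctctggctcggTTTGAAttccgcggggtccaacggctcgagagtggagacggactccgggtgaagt
Cdca3: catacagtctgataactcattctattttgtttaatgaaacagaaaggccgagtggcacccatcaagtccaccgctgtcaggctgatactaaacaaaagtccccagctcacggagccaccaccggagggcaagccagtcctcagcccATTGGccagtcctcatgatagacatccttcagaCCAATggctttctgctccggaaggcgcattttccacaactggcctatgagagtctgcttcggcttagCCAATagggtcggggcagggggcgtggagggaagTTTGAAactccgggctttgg
Of the 15 called mitosis genes with a promoter in the table, 12 (80%) held TTTGAA and 11 (73.3%) held CCAAT. The shares were 20.2% and 41.1% of all 27025 genes with a promoter, and 14.5% and 43.8% of the 6563 tested genes with one. A gene was counted if any of its listed windows held the letters. Of all 18 tested mitosis genes with a promoter, called or not, 15 (83.3%) held TTTGAA and 14 (77.8%) held CCAAT. The shares among the called mitosis genes were thus no higher than over the tested mitosis list. Of 10 replication genes called higher and with a promoter, 2 (20%) held TTTGAA and 5 (50%) held CCAAT. Of all 22 tested replication genes with a promoter, 3 (13.6%) held TTTGAA and 10 (45.5%) held CCAAT. The motifs do not overlap each other in the windows shown. A match is a string of letters and shows no binding.

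DNA replication genes were less uniform. Of 24 tested, 12 were called higher and 3 lower, with a median of 0.513 (0.293 set-adjusted), and 1 rise and 1 fall were called with the array set as a term. Without naive sample B or C 6 were called higher and without 6-week sample A 7. Mcm2, a subunit of the replicative helicase, changed by 1.62 ± 0.23 (adjusted p = 9.58e-05), and 1.36 with the undetected naive arrays at their lowest detected signal. Tk1, thymidine kinase, went the other way with 6.73, 7.16 and 6.70 at 6 weeks, against 8.78, 8.44 and 8.48 in naive liver, a change of -1.70 ± 0.23 (adjusted p = 7.18e-05).

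Targets of p53, which answers DNA damage, rose in part. Of 31 listed, 21 were tested, 11 were called higher and 1 lower, with a median of 0.847 (1.28 set-adjusted), and 7 of the rises were also called with the array set as a term. Mdm2, the ubiquitin ligase that restrains p53, had levels of 11.53, 11.07 and 11.19 at 6 weeks, against 9.05, 8.59 and 8.90 in naive liver, a change of 2.41 ± 0.22 (adjusted p = 4.00e-06). Cdkn1a, the cell cycle inhibitor p21, had levels of 10.50, 10.46 and 9.87 at 6 weeks, against 5.02, 8.94 and 6.97 in naive liver. Its change was 3.30 ± 0.63 (adjusted p = 0.00104; set-adjusted p 0.0861). Phlda3, an AKT inhibitor, was at least 8.91-fold higher, and Gtse1, which binds p53 late in the cell cycle, at least 7.47-fold, both undetected on every naive array. Inhibitor and cell cycle genes were thus higher in the same RNA.

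Stress of the endoplasmic reticulum did not appear as a common rise. Of 30 tested genes of that list, 3 were called higher and 12 lower, and 2 and 5 of these also with the array set as a term. Atf3, a stress-induced transcription factor, was detected on no naive array and was at least 3.77-fold higher (adjusted p = 3.35e-06). Ddit3, the factor CHOP, changed by 1.99 ± 0.24 (adjusted p = 3.81e-05). Chac1, a glutathione-degrading enzyme downstream of ATF4, was detected on no 6-week array, at 4.49, 4.48 and 4.53 against 7.06, 7.28 and 7.34 in naive liver. It was at least 3.99-fold lower (adjusted p = 6.39e-07). Calr, the chaperone calreticulin, changed by -1.90 ± 0.24 and the oxidase gene Ero1b by -2.43 ± 0.32. Of 34 tested heat shock and proteasome genes, 10 were called higher and 3 lower (22.4% and 16.4% over all genes). Under median scaling 3 were called higher and 7 lower. With the array set as a term 0 of the 10 rises and 3 falls were also called. Hspb1, a small heat shock protein, changed by 1.74 ± 0.38 (adjusted p = 0.00254; set-adjusted 0.94, p 0.373).

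Of 22 tested genes of iron, zinc and copper handling, 2 were called higher and 6 lower, with 1 to 4 lower when any single array of the groups was left out and 2 and 3 with the array set as a term. Tfrc, the transferrin receptor, changed by 1.27 ± 0.22 (adjusted p = 4.51e-04). Of 15 tested clock genes, 3 were called higher and 2 lower, near the shares of 22.4% and 16.4% over all genes. With the array set as a term 0 of these calls were also made. The repressor gene Nr1d1 changed by -1.63 ± 0.45 (adjusted p = 0.0107), by -0.93 without naive sample A and by -2.52 set-adjusted (set-adjusted p 0.0567). The time of day at which livers were taken is not in the labels.

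Other genes with large changes lay outside the lists. Spink1, a trypsin inhibitor, had levels of 7.36, 9.50 and 10.27 at 6 weeks, against 4.35, 4.51 and 4.35 in naive liver, none of whose arrays detected it. It was at least 12.4-fold higher (adjusted p = 7.45e-05). Adam32, a gene best known from testis, had levels of 8.21, 9.05 and 9.22 at 6 weeks, against 4.65, 4.49 and 4.52 on naive arrays, and was at least 10.7-fold higher (adjusted p = 9.15e-08). Ccdc120 changed by 3.66 ± 0.26 (adjusted p = 4.86e-07), or 3.57 with the undetected naive arrays at their lowest detected signal. On the low side, Dct, known from melanin synthesis, had levels of 5.47, 4.77 and 4.88 at 6 weeks, against 9.35, 8.98 and 9.03 in naive liver, a change of -4.08 ± 0.35 (adjusted p = 2.56e-06). Nxpe2 changed by -3.31 ± 0.35 (adjusted p = 1.51e-05). Of 30 markers of pancreas, kidney, muscle, fat and gut that might be carried over with liver, 5 were tested, 2 were called lower and 0 higher, with a summed intensity of 480 to 584 at 6 weeks, against 684 to 814 in naive liver. Cela2a, a pancreatic elastase, changed by -1.55 ± 0.23 (adjusted p = 1.49e-04), and was not called under median scaling, at -0.658.

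**Figure D4:**
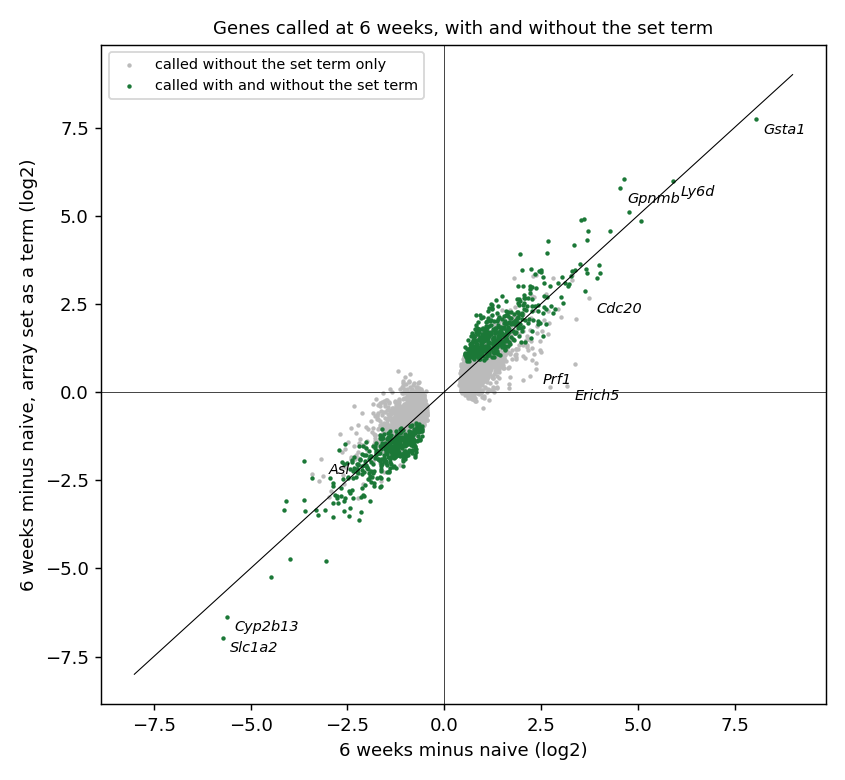
Each point is a gene called at 6 weeks, with its change, 6 weeks minus naive in log2 units, on the horizontal axis and the same change fitted with the array set as a term on the vertical axis. Green genes were called in both fits and grey ones only without the term; the diagonal marks equal values. Erich5 and Prf1 are among the genes that set the array sets apart, so a smaller set-adjusted change was largely built in for them. They lie near 0 on the vertical axis, at 0.18 and 0.64, while Gsta1 stays near the diagonal and Slc1a2 lies below it.

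To ask what separated 6 from 4 weeks of TAA, the changes from naive at both times were set against each other, which is the difference between the 6-week and 4-week groups. The 4-week group holds 4 samples of total liver from TAA-treated female C57BL/6 mice. Of the 8027 genes, 426 (5.31%) were called, 178 (2.22%) higher and 248 (3.09%) lower at 6 weeks than at 4 weeks, and 332 of them were also called against naive. With the array set as a term 0 genes were called by limma, with 800 at an unadjusted p under 0.05, so the time and the array set cannot be told apart here. Without 6-week sample A the count was 106, without 6-week sample C 141, and without 4-week samples B, C or D 237, 220 or 145. Under median scaling 845 genes were called, 65.3% of them higher, against 41.8% higher in the count of 426.

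Cyp2b13 was lower at 6 weeks than at 4 weeks, at 6.44 against 9.60, a difference of -3.16 ± 0.60 (adjusted p = 0.00894). It was not called without 6-week sample A or 6-week sample C, at -3.06 and -2.86. Cyp2b10 differed by -2.81 ± 0.40 (adjusted p = 0.00178), at 6.01 against 8.82, Car3 by -2.61 ± 0.38 (adjusted p = 0.00178), Gnas, a G protein subunit, by -2.70 ± 0.31 (adjusted p = 0.00121) and Asl by -2.55 ± 0.37 (adjusted p = 0.00178). Nqo1 was lower as well, at 6.25 against 7.58 at 4 weeks, a difference of -1.34 ± 0.19 (adjusted p = 0.00178). Mdm2 was higher at 6 weeks, at 11.26 against 10.27, a difference of 0.99 ± 0.20 (adjusted p = 0.0137). It was not called without 6-week sample A (0.854) or 4-week sample D (0.933).

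The largest rises over 4 weeks were those of genes that set the array sets apart. Erich5 read 11.18 at 6 weeks and 7.41 at 4 weeks, a difference of 3.76 ± 0.53 (adjusted p = 0.00178) that was 0.77 set-adjusted. Against naive, Erich5 changed by 3.17 ± 0.57 and by 0.18 set-adjusted. Zxda, Ifngr2, Pisd-ps2, Gm7609 and Rhbdl2 followed the same order, and Zxda and Ifngr2 changed against naive by 2.73 and 2.21, or 0.15 and 0.44 set-adjusted. A further Ifngr2 probe changed by -0.042. The matrix genes were not called between the times: Col3a1 differed by 0.88 ± 0.33 (adjusted p = 0.137), Mmp2 by 0.99 ± 0.49 (adjusted p = 0.259) and Acta2 by 0.11 ± 0.47 (adjusted p = 0.928), nor was Gsta1, at 0.53 ± 0.45 (adjusted p = 0.519).

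**Figure D5:**
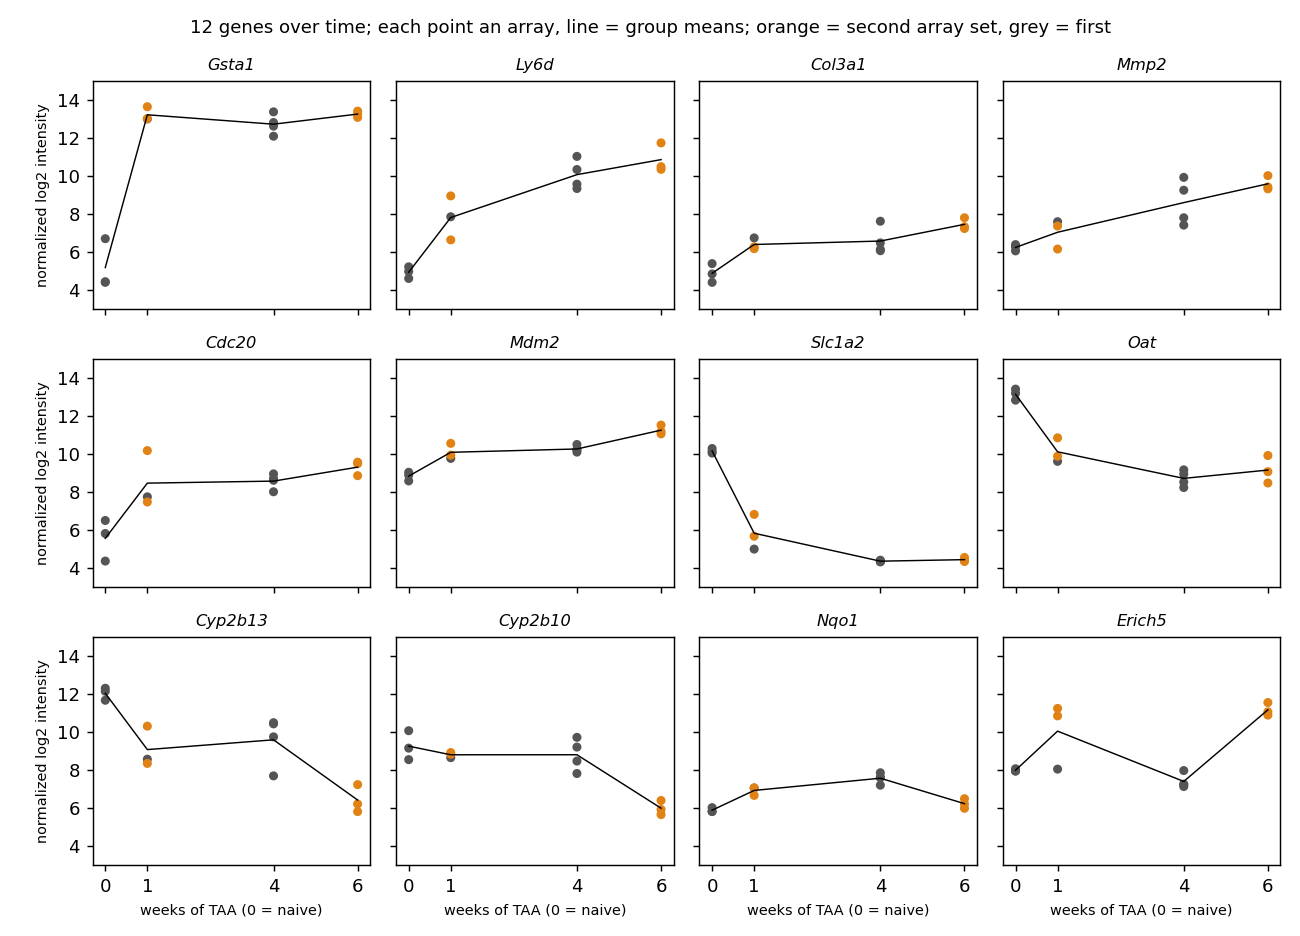
Each panel gives the normalized log2 intensity of 1 gene on every array of the series against weeks of TAA, with 0 for naive, and a line through the group means; orange points are arrays of the second array set and grey points those of the first. The means of Gsta1 and Slc1a2 at 1 week already lay far from naive, those of Mmp2 and Mdm2 were highest at 6 weeks, and Erich5 was high on the orange arrays at 1 and 6 weeks alike.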

How the data were processed

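Total liver RNA of 13 samples was hybridised to Illumina MouseRef-8 arrays. Per the file headers, the authors deposited a table with the mean bead intensity of each probe, not normalized, and a detection p-value beside it, which ranks the probe among the negative controls of its array. Per the submitters' processing notes the tool was GenomeStudio (version not stated). The authors' deposited value table holds log2 values centred near 0 (mean 0.00751), whose normalization and centring are not stated. Its differences between 6 weeks and naive followed those of the quantile-normalized intensities (r = 0.998, slope 0.904 across probes), so it was taken as log2, with brighter probes higher. Its column medians lay between -0.00176 and 0.00134, and it served as an alternative only.

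Intensities were background-corrected and quantile-normalized over all 13 arrays with neqc (limma 3.58.1, R 4.3.3, offset 16). Of 25697 probes, 23978 had 1 gene symbol, 1719 none and 0 several. Symbols were updated by gene ID for 23962 and by accession for 9, and 7 kept the symbol they had. Of 11212 probes detected on at least 3 arrays, 10559 were named, and the probe with the highest mean stood for a gene. Of 1935 genes with further probes, 806 were called, and in 38 of these a further probe was called in the opposite direction. Changes came from 1 limma fit with a mean per group (lmFit, eBayes, two-sided) over all 13 arrays, called at a Benjamini-Hochberg adjusted p under 0.05 over all genes. The code was tested on simulated data. For arrays, the number of arrays limits the precision.

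The members and the 43 gene lists were chosen with earlier results of these data known. Genes named are the largest changes with non-overlapping arrays, the largest bounds, up to 3 genes per list and direction, a set of anchor genes, and genes that also differed from 4 weeks. Replicate numbers of the value table and letters of the intensity table both repeat across groups and could not be matched to each other. Same-numbered samples at 6 weeks and naive did not deviate together (correlations of deviations -0.159, -0.0755 and -0.00433), nor did same-lettered ones (-0.123, -0.0428 and -0.00664), so neither was taken as pairs. Promoter windows came from RefSeq. Alternatives changed the background correction, scaling, offset, probe filter, probe choice, array set, array weights, input table and arrays used.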

Additional observations from a re-analysis of the deposited data

Results flagged for a closer look

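In the comparison of 6 with 4 weeks of TAA, the fit without the array set gave adjusted p-values under 0.05 for 14 named genes, so their changes from naive differ between the times in that fit. The differences, 6 weeks minus 4 weeks in log2 units, were 3.76 for Erich5, 3.60 for Pisd-ps2, 3.49 for Zxda, 3.15 for Gm7609, 2.80 for Rhbdl2, 2.78 for Ifngr2 and 0.99 for Mdm2. They were -3.16 for Cyp2b13, -2.81 for Cyp2b10, -2.70 for Gnas, -2.62 for A1bg, -2.61 for Car3, -2.55 for Asl and -1.34 for Nqo1. None of the 14 was called by limma with the array set as a term, where the differences were 0.77 for Erich5, -3.92 for Cyp2b13 and -3.03 for Cyp2b10. A1bg was not called without 6-week sample C, at -2.44, or 4-week sample D, at -2.42. Of the 653 probes without a gene symbol, which the comparisons above do not use, 257 were called at 6 weeks against naive, 135 higher and 122 lower.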

How the results depend on the processing

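The count of 3118 genes called at 6 weeks against naive was 934 with the array set as a term, and it lay between 2467 and 2740 when 1 array of either group was left out. Under the other alternatives over genes it was 2614 to 3682, the lowest with the replicate block on the authors' value table and the highest with array weights. With all 10559 named probes tested, 4112 probes were called. The replicate block gave 2614 genes, with numbers that do not pair the samples. The count of 426 genes between 6 and 4 weeks was 0 with the array set as a term, with 800 genes at an unadjusted p under 0.05. It was 845 under median scaling, 868 with array weights, 747 on the arrays of these groups alone, and 102 with the replicate block on the value table. Over all 10559 named probes 1075 probes were called. The count lay between 106 and 497 when 1 array was left out. The cause of these differences was not tested. Signs turned with the array set as a term for Cyp7a1 (0.13), Hnf4a (-0.55), Tgfb1 (0.83), Clec4f (0.036) and Adgre1 (0.77). Under median scaling they turned for Hnf4a (-0.349), Alb (0.168), Tgfb1 (0.136) and Timd4 (0.0055). With 1 array left out, Alb lay between -0.245 and 0.196 and Tgfb1 between -0.126 and 0.050. Of these only Clec4f was called. An offset of 50 in place of 16 lowers the fitted change of dim probes by construction, for Col1a1 to 1.05 and for Trem2 to 1.65, both still called. Genes detected on no array of a group have a bound and no fold, and 468 of the called genes are of this kind.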
